A study of Mus musculus with 6 samples.

Results

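Reads of AA467197 and of its paralogs Ndufa4 and Ndufa4l2 were compared between cultured mouse cells that lack Edf1 and wild-type cells. The members are the 3 rows of the deposited count table with these gene symbols, of 22851 rows in all. AA467197 (also named Nmes1) was chosen by its log2 fold change of knockout against WT, the largest among the genes of respiratory complex IV and its paralogs, so its values in this contrast are given as a description without a test. Ndufa4 and Ndufa4l2 were taken as its paralogs and not by their values. The study made Edf1 knockout mice with CRISPR/Cas9 to find genes that depend on Edf1 while ependymal cells form. Radial glial cells, the progenitors that line the ventricles, were taken from brains at postnatal days 0 to 3 and kept with serum, and serum was then withdrawn for 6 days so that multiciliated ependymal cells would form. There were 3 WT and 3 Edf1 knockout (KO) libraries, all of C57BL/6J background and all induced in the same way. The labels do not give the edited part of Edf1, whether animals were pooled, or the share of cells that became multiciliated.

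Ndufa4 is a small single-span protein of the inner mitochondrial membrane. It was first assigned to complex I and is now regarded as a subunit of complex IV, cytochrome c oxidase, which passes electrons to oxygen. AA467197 is known to be induced by inflammatory stimuli and to take the place of Ndufa4 in complex IV, and its transcript also carries a microRNA, miR-147. Ndufa4l2 is a known target of hypoxia-inducible factors that lowers mitochondrial oxygen use when oxygen is scarce.

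In the GRCm38 annotation, AA467197 lies on the plus strand at chr2:122636986-122641191, Ndufa4 on the minus strand at chr6:11900292-11907497, and Ndufa4l2 on the plus strand at chr10:127514967-127517154. All 3 are protein-coding. The longest coding transcripts have 792 bases in 5 exons for AA467197, 610 bases in 4 exons for Ndufa4, and 934 bases in 4 exons for Ndufa4l2. Their coding sequences are of like size, at 249, 246 and 261 bases without the stop codon. In global alignments Ndufa4 and Ndufa4l2 were identical at 69.7% of aligned bases, AA467197 and Ndufa4 at 56.7%, and AA467197 and Ndufa4l2 at 56.2%. By coding sequence, AA467197 is therefore the more distant paralog. The 60-base stretch that is most alike in all 3 is shown because it is where reads could most easily have been assigned to the wrong paralog. Capitals mark the 35 bases shared by all 3, and the stretch begins at coding base 126 in AA467197, 135 in Ndufa4 and 150 in Ndufa4l2.
AA467197: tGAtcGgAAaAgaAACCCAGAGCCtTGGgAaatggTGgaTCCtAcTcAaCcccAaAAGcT
Ndufa4: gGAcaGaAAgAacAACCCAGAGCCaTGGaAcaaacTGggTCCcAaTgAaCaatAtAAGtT
Ndufa4l2: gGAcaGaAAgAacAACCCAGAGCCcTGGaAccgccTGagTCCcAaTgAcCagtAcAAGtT
Even here, AA467197 matched Ndufa4 at 38 of 60 bases and Ndufa4l2 matched it at 52. Over the whole transcripts, no 31-base word was shared between the 3 paralogs. Of the 31-base words of Ndufa4, 3.45% also occurred in transcripts of 3 other annotated genes, none of which has a row in the count table.

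The promoter of AA467197 is shown because this gene is the member that differs most between the genotypes, and that of Ndufa4 for comparison. Both sequences are from RefSeq on GRCm38.p6 and run from 250 bases before to 50 bases after the annotated start, 5′ to 3′ on the strand of the gene (chr2:122637637-122637936 for AA467197 and chr6:11907401-11907700 for Ndufa4). Capitals mark matches on either strand to TGANTCA (the AP-1 motif), an NF-kB motif (GGG and TTTCC with any 2 bases between them), ACGTG (the core bound by hypoxia-inducible factors), CACGTG (an E-box that contains this core), TATAA and TGACGT (the core of the site bound by CREB).
AA467197: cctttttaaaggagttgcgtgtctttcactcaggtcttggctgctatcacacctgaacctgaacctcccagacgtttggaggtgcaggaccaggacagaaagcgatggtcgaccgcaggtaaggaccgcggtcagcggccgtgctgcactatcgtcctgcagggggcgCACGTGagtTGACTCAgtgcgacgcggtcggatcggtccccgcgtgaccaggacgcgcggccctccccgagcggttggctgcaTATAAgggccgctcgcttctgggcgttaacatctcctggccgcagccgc
Ndufa4: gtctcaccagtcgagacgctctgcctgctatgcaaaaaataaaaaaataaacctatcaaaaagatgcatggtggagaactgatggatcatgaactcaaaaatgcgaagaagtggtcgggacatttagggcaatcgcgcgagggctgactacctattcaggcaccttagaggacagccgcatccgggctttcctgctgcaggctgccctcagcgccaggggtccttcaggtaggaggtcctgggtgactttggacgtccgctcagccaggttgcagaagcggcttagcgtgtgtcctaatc
The AA467197 promoter held CACGTG, with its 2 overlapping ACGTG matches, and TGACTCA, beginning 82 and 73 bases before the RefSeq start. It also held 1 TATAA, which begins 1 base after the RefSeq start, after the annotated start of AA467197-201 and 27 bases before the annotated start shared by AA467197-202 and AA467197-204. Among 32851 RefSeq promoters of the same length, 7.15% held CACGTG, 19.6% held ACGTG, 7.81% held TGANTCA and 24.9% held TATAA on either strand. Neither the NF-kB motif nor TGACGT was found in the AA467197 window, against 1.63% and 7.51% of all promoters. The Ndufa4 window held none of the 6 motifs. The AA467197 window had 29 CG dinucleotides and the Ndufa4 window 14, against a median of 7. These matches are letters in a window, and no binding was measured. Ndufa4l2 has no sequence shown.

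The hairpin of Mir147 (chr2:122640803-122640881) lies on the same strand inside AA467197. It falls in the last exon and in the 3′ untranslated region of transcripts AA467197-201 and AA467197-202, and in the last, non-coding exon of AA467197-204. Transcript AA467197-203 ends before it. The mature 5p product, shown with its seed (bases 2 to 8) in capitals, is the arm present in the RefSeq table used. No other mature mouse microRNA in that table has this seed.
mmu-miR-147-5p: uGGAAACAuuucugcacaaacuag
Mir147 has no row of its own in the count table. The AA467197 counts therefore describe the host transcript, and no level of the microRNA is given.

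**Figure D1:**
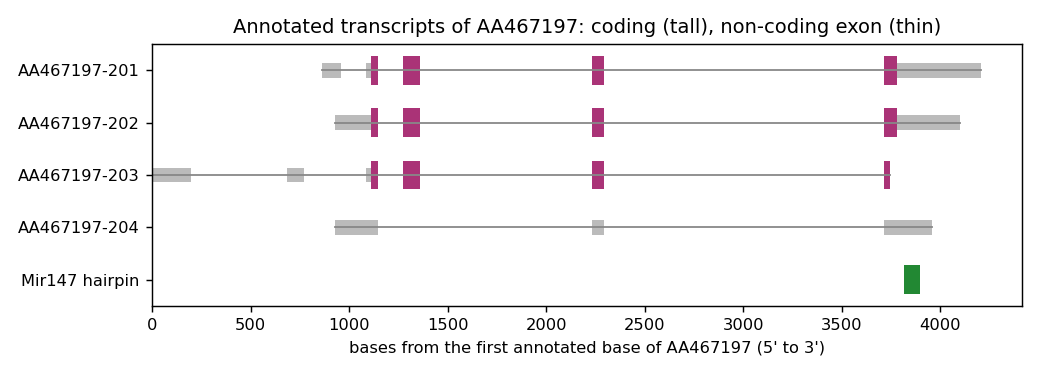
Annotated transcripts of AA467197 on GRCm38, with distance in bases from the first annotated base of the gene on the x axis. Tall blocks are coding, thin blocks are non-coding exon, and the Mir147 hairpin is drawn below. Of the 4 transcripts, 3 contain the hairpin in their last exon.

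Total counts were 13071766 to 28087006 per library, with the lowest total in WT replicate 2. Levels are given as CPM, counts scaled to the size of each library after TMM, edgeR's correction for library composition. Edf1 itself fell from 82.9 ± 2.85 to 11.3 ± 1.72 CPM (SD, n = 3 each; edgeR quasi-likelihood adjusted p = 5.46e-09), and every KO library was below every WT library. Of 14243 genes with enough counts to test, 26.9% were called changed at an adjusted p under 0.05, 12.7% higher and 14.2% lower. Ependymal markers were present in both genotypes, at a summed 2300.2 to 2597 CPM in WT and 1286 to 1367 CPM in the knockout, and 11 of 12 were called lower. Markers of radial glia and astrocytes had a higher sum, 10904 to 11289.7 CPM in WT and 11892 to 12386 CPM in the knockout.

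AA467197 was scarce in WT and clearly detected in every knockout library. It had 32, 16 and 22 counts in WT replicates 1 to 3 and 139, 134 and 223 counts in knockout replicates 1 to 3. Scaled to depth, the WT replicates had 1.21, 1.24 and 1.19 CPM and the KO replicates 8.55, 7.47 and 7.89 CPM. The lowest knockout library was far above the highest WT library, and the groups did not overlap in 43.3% of all tested genes. The means were 1.21 ± 0.028 and 7.97 ± 0.54 CPM, a 6.57-fold difference and a log2 fold change of 2.71 (SE 0.17). The exact 95% Poisson intervals, which cover counting error only, reached from 0.711 to 2.02 CPM over the WT libraries and from 6.25 to 10.1 CPM over the KO libraries. The WT intervals are much wider than the WT SD. Among the structural subunits of complex IV, the highest log2 fold change was that of the mitochondrially encoded COX3 at 0.28, which was not called (adjusted p = 0.273, edgeR), followed by Cox7a1 at 0.080. COX3 was called at 0.50 when knockout replicate 1 was left out (adjusted p = 0.0135, edgeR). Its level was 55.8 ± 10.4 CPM (WT) and 67.8 ± 20.1 CPM (KO). That is far below COX1, also mitochondrially encoded, at 17252 ± 568 CPM in WT. COX2, also mitochondrially encoded, was low as well, at 82.0 ± 12.2 CPM (WT) and 78.1 ± 16.9 CPM (KO). The cause of these gaps was not tested, and they limit what the COX3 and COX2 counts say about those subunits. Both are among the tested complex IV subunits summarised below.

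Ndufa4, the widely expressed paralog, was lower in the knockout by a small amount. The WT replicates had 145, 164 and 136 CPM, and the KO replicates 126, 129.9 and 129 CPM. All KO libraries lay below all WT libraries, and WT replicate 2 was the highest. The means were 148 ± 14.2 and 128 ± 2.24 CPM, a knockout level of 86.3% of WT. This is -0.21 on the log2 scale (SE 0.066; adjusted p = 0.0321 over all tested genes, edgeR quasi-likelihood test). The call was lost without WT replicate 1 (-0.22, adjusted p = 0.0611), knockout replicate 1 (-0.20, 0.120), knockout replicate 2 (-0.22, 0.0811) or knockout replicate 3 (-0.21, 0.0913), all by edgeR. It held without WT replicate 2, at a smaller -0.14 (adjusted p = 0.0228, edgeR).

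Ndufa4l2 was close to the limit of detection. It had 10, 5 and 13 counts in WT and 7, 15 and 25 counts in the knockout, or 0.377, 0.388 and 0.703 CPM against 0.430, 0.836 and 0.885 CPM. Knockout replicate 1 lay inside the WT range, so the groups overlapped. The means were 0.489 ± 0.18 and 0.717 ± 0.25 CPM. The difference of 0.61 on the log2 scale (SE 0.42) missed the threshold (adjusted p = 0.316, edgeR), so no difference was detectable at this depth. It was 0.38 without WT replicate 1, 0.40 without knockout replicate 3 and 0.95 without WT replicate 3. A 32-base end of the Ndufa4l2 exons overlaps exons of Shmt2 on the opposite strand, and the sources used here do not say whether counting used strand. Shmt2 rose from 42.4 ± 1.56 to 68.6 ± 1.41 CPM (adjusted p = 3.41e-06, edgeR), and its part in the Ndufa4l2 counts was not tested.

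**Figure D2:**
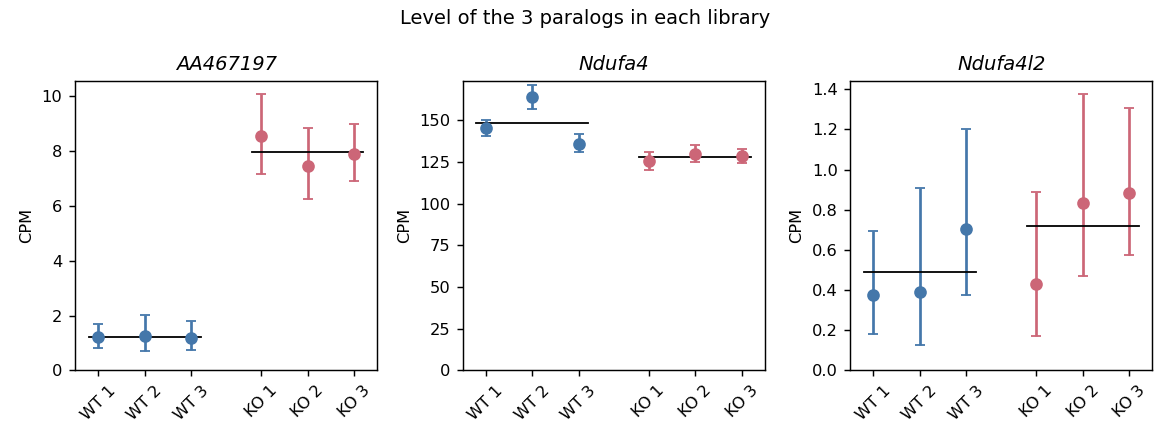
Level of each paralog in CPM (y axis, starting at 0) in the 3 WT (blue) and 3 Edf1 knockout (red) libraries, with exact 95% Poisson intervals and group means as black lines. AA467197 is at 1.19 to 1.24 CPM in the WT libraries and at 7.47 to 8.55 CPM in the KO libraries, Ndufa4 is slightly lower in the knockout, and Ndufa4l2 overlaps.

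To compare levels between the 3 genes, CPM were divided by the length of the longest coding transcript. On this scale of CPM per kilobase, Ndufa4 was by far the most abundant in both genotypes, at 243 ± 23.2 for WT and 209.9 ± 3.68 for KO. AA467197 came second, at 1.53 ± 0.035 and 10.1 ± 0.69. Ndufa4l2 was lowest, at 0.524 ± 0.20 and 0.768 ± 0.27. The order was the same in all 6 libraries, and neighbours in it did not overlap within either genotype. AA467197 made up 0.580% to 0.666% of the summed level of the 3 paralogs in the WT libraries and 4.22% to 4.97% in the KO libraries. Its mean share was 0.627% ± 0.044 for WT and 4.56% ± 0.38 for KO. Ndufa4 was 159 times as abundant as AA467197 in WT and 20.9 times in the knockout. The rise of AA467197 by 8.53 CPM per kilobase was smaller than the fall of Ndufa4 by 33.4, or by 20.7 without WT replicate 2. The sum of the 3 was 245 ± 23.1 for WT and 221 ± 3.25 for KO. These shares rest on the values that chose AA467197 and carry no test. They depend on the lengths: with the longest Ndufa4 transcript of any kind, which retains an intron, the AA467197 share was 1.26% in WT and 8.78% in the knockout.

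**Figure D3:**
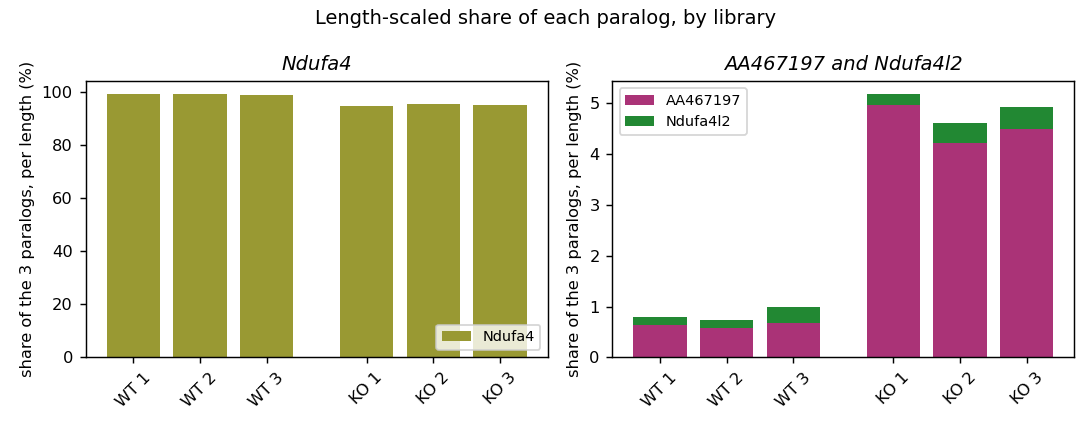
Share of each paralog in the summed length-scaled level of the 3, in percent, by library, with Ndufa4 on the left and the other two stacked on the right on a smaller scale. AA467197 goes from 0.580% to 0.666% in the WT libraries to 4.22% to 4.97% in the knockout libraries.

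No other complex IV subunit or assembly factor was called higher. Of 21 further structural subunits, 17 had enough counts, and 0 were called higher and 1 lower, or 5.88% against the 26.9% of all tested genes. Their median log2 fold change was -0.068, against 0.0029 over all tested genes, but -0.0015 without WT replicate 2 and -0.12 without WT replicate 3. The 1 called subunit was Cox7a2, which fell from 89.8 ± 3.61 to 75.1 ± 2.43 CPM (-0.26, adjusted p = 0.00504, edgeR). Cox7a2 is the widely expressed form of a subunit at the contact between the monomers of the enzyme. With Ndufa4 counted in, Ndufa4 had the second lowest log2 fold change of 18. COX1, the mitochondrially encoded catalytic subunit, had 17252 ± 568 CPM (WT) and 17177 ± 177 CPM (KO). Among the 27 tested assembly factors, which deliver copper and heme or hold the partly built enzyme, 2 were called lower and 0 higher (7.41% called), with a median of -0.057, or -0.025 without WT replicate 2 and -0.029 without knockout replicate 1. Pet100, needed for a late assembly step, had a log2 fold change of -0.35 (adjusted p = 0.0274) and Cox10, which makes the heme of the enzyme, -0.34 (adjusted p = 0.0249), both by edgeR. Leaving out WT replicate 1, or replicates 1 or 3 of the knockout, ended both calls, and leaving out replicate 2 of the knockout ended that of Pet100, with adjusted p of at most 0.119 for Pet100 and 0.108 for Cox10 by edgeR. The 12 Ndufa subunits of complex I had a median of -0.11, or -0.049 without WT replicate 2, with 1 called lower (8.33%), Ndufa2 (-0.27, adjusted p = 0.0152, edgeR). Ndufa2 lost its call without any 1 of the 3 knockout libraries (adjusted p of at most 0.0666, edgeR).

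**Figure D4:**
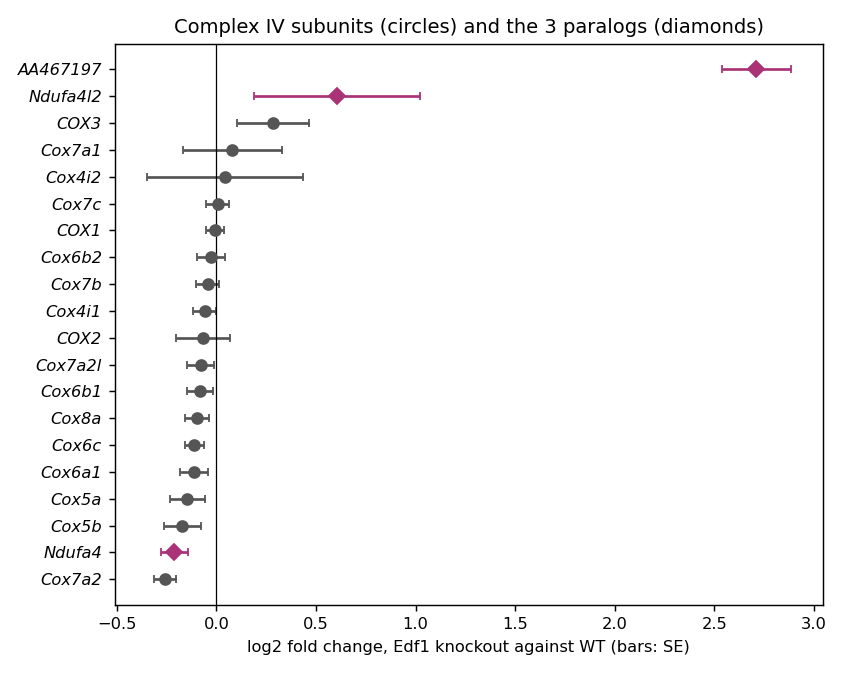
Log2 fold change of knockout against WT (x axis, bars are standard errors) for the tested complex IV subunits (circles) and the 3 paralogs (diamonds). The subunits lie between -0.26 for Cox7a2 and 0.28 for COX3, with Ndufa4 at -0.21 and AA467197 at 2.71.

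Nuclear genes of the respiratory chain shared the high level of WT replicate 2. The summed level of the 12 Ndufa subunits was 964, 1079.7 and 897 CPM in WT replicates 1 to 3 and 875, 910.2 and 915 CPM in KO replicates 1 to 3. Ndufa4 was therefore also expressed per library as a percentage of such sums, a measure chosen after the values had been seen. Relative to the 12 Ndufa subunits it came to 15.1%, 15.2% and 15.2% for WT and 14.4%, 14.3% and 14.1% for KO. Among these 12, Ndufa12 varied widely within both genotypes. It had 71.8, 71.2 and 30.4 CPM (WT) and 43.4, 31.03 and 69.99 CPM (KO). The sums and the close WT percentages depend in part on Ndufa12, and percentages without it were not computed. Relative to the 14 tested nuclear subunits of complex IV, Ndufa4 came to 8.28%, 8.23% and 7.99% for WT and 7.43%, 7.46% and 7.65% for KO. The groups did not overlap on either measure, and the mean ratio of knockout to WT was 0.940 and 0.920. The exact two-sided permutation p was 0.1 for both, the smallest that 3 against 3 libraries can give. Groups that do not overlap always give this p, so it adds nothing to the separation already stated.

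Since AA467197 is known as an inflammation-induced gene, genes induced by NF-kB or bacterial lipopolysaccharide were examined. Of 33 such genes, 21 had enough counts, and 7 were called higher and 0 lower, against 12.7% higher and 14.2% lower of all tested genes. Their median log2 fold change was 0.24, or 0.12 without WT replicate 2. The log2 fold change was below 0 in 5 of the 21. Tnf (-0.30), Nfkbia (0.012), Nfkb1 (0.023) and Tnfaip3 (0.14) were not called, with adjusted p of at least 0.456 by edgeR. The chemokine gene Cxcl10 stood at 3.39, 3.34 and 4.70 CPM in the WT replicates and rose to 6.58, 7.97 and 12.8 CPM in the KO replicates, by 1.29 on the log2 scale (adjusted p = 0.00163, edgeR). The groups did not overlap, and knockout replicate 3 was the highest. The monocyte chemokine gene Ccl2 was low, at 0.866, 1.48 and 0.865 CPM (WT) and 1.84, 2.01 and 2.87 CPM (KO), and was called higher (1.16, adjusted p = 0.0118, edgeR). The complement gene C3 rose from 73.9, 70.1 and 75.4 CPM (WT) to 83.9, 99.7 and 120.3 CPM (KO) (0.47, adjusted p = 0.00448, edgeR). In each of these 3 genes the highest library was knockout replicate 3. Leaving out knockout replicate 3 lowered the calls over all genes from 3833 of 14243 to 2701 of 14359. Those called higher went from 1804 to 1257. In that fit 4 of 22 genes of the list were called, all of them higher, and the list median was 0.035. The Ccl2 call was then lost (0.91, adjusted p = 0.0845), as it was without WT replicate 1 (1.02, adjusted p = 0.0591), both by edgeR. The other 12 genes of the list, among them Il1b, Il6 and Nos2, had too few counts to be tested.

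Genes induced by hypoxia, which include Ndufa4l2 in other cells, were called about as often as other genes. All 28 listed genes were tested, and 4 were called higher and 5 lower, or 32.1% against the 26.9% of all tested genes. Their median log2 fold change was 0.011, or -0.028 without knockout replicate 2. Vegfa, a growth factor for blood vessels, rose from 13.2 ± 1.75 to 21.7 ± 1.29 CPM (0.70, adjusted p = 0.000256, edgeR). The glucose transporter gene Slc2a3 rose by 0.51 and the oxidase gene Ero1a of the endoplasmic reticulum by 0.40 on the log2 scale (adjusted p of 0.00232 and 0.00273, edgeR). Car9, a carbonic anhydrase, fell from 12.3 ± 0.71 to 7.34 ± 0.32 CPM (-0.74, adjusted p = 0.000265, edgeR). The glycolytic gene Aldoc fell from 602 ± 26.8 to 452 ± 12.5 CPM (-0.41, adjusted p = 4.57e-05, edgeR). The hexokinase gene Hk2 (-0.29, adjusted p = 0.0396, edgeR) kept its call without WT replicate 2 but in none of the 5 other fits without 1 library (adjusted p of at most 0.137), nor with DESeq2 (0.0842).

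**Figure D5:**
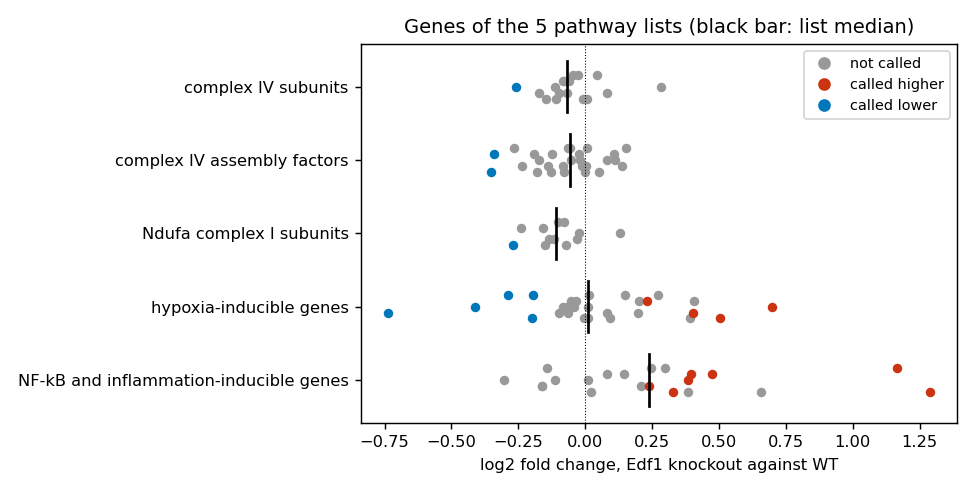
Log2 fold change of knockout against WT (x axis) for the tested genes of each pathway list, 1 point a gene, with called genes in colour and the list median as a black bar. The medians run from -0.11 for the Ndufa subunits to 0.24 for the NF-kB and inflammation list, where all 7 called genes are higher.

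The genes whose level followed AA467197 most closely over the 6 libraries were Trpm3, Zic4, Rspo3, Xlr3b and Kdr. Likeness was the root mean square distance between log2 CPM profiles, each centred on its own mean, among genes with a mean log2 CPM of at least 1. The distance was 0.13 for the ion channel gene Trpm3, 0.27 for the transcription factor gene Zic4, 0.33 for Rspo3, which encodes a Wnt activator, 0.41 for Xlr3b and 0.45 for the VEGF receptor gene Kdr. The median over all candidates was 1.31 for AA467197, 0.177 for Ndufa4 and 0.456 for Ndufa4l2. Trpm3 had 6.48, 6.14 and 5.30 CPM (WT) and 36.1, 36.5 and 31.2 CPM (KO), so it was also low in every WT library and high in every knockout library. These genes are alike by sharing a large rise, and the measure says nothing about shared control. For Ndufa4 the closest were Ndufv2, a subunit of complex I, at 0.014, Loxl3 at 0.015 and Dmap1 at 0.016. Ndufv2 had 126, 143 and 119 CPM (WT) and 109.9, 115 and 111 CPM (KO), with WT replicate 2 again the highest. For Ndufa4l2 the closest were Tnfrsf22, COX3 and Crispld2, at 0.15, 0.16 and 0.19, and its own few counts limit that order.

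The tested coding genes nearest to AA467197 had smaller log2 fold changes than AA467197. Of the 3 nearest coding genes on each side, 5 were tested and 1 was called, against 26.9% called and 12.7% called higher of all tested genes. This was Gatm, an enzyme gene of creatine synthesis 25683 bases away, which rose from 31.5 ± 2.17 to 45.7 ± 0.85 CPM (0.53, adjusted p = 0.000110, edgeR). Shf (0.38, adjusted p = 0.154), Sqor (0.10, adjusted p = 0.323), Slc30a4 (0.072, adjusted p = 0.605) and Bloc1s6 (0.063, or -0.020 without knockout replicate 1, adjusted p = 0.642) were not called by edgeR. Their distances from AA467197 were 267824 bases for Shf, 124046 for Sqor, 40042 for Slc30a4 and 97312 for Bloc1s6. Spata5l1, which fell outside the rule used to pick coding neighbours, was 0.24 higher on the log2 scale (adjusted p = 0.0896, edgeR), which missed the threshold. Phf14 starts 312 bases from Ndufa4 on the opposite strand, facing away from it, and had 96.001 ± 5.56 CPM (WT) and 96.4 ± 6.03 CPM (KO) (adjusted p = 0.970, edgeR). Of the 5 tested neighbours of Ndufa4, only Thsd7a was called, higher at 0.40 (adjusted p = 0.0142, edgeR), a call lost without WT replicate 1 or knockout replicates 1 or 3 (adjusted p of at most 0.0676, edgeR). The others, Ica1 (0.36, adjusted p = 0.0701), Tmem106b (0.12, adjusted p = 0.180) and Glcci1 (-0.035, or 0.13 without WT replicate 1, adjusted p = 0.901), were not called by edgeR. Apart from Phf14 these genes lie far from Ndufa4. The gaps were 404113 bases for Thsd7a, 1162262 for Tmem106b, 3121804 for Ica1 and 3302744 for Glcci1. Of the 4 tested neighbours of Ndufa4l2, 3 were called and all 3 were higher: R3hdm2 (0.56), Shmt2 (0.69) and the lipoprotein receptor gene Lrp1 (0.96), with adjusted p of at most 4.13e-06 by edgeR. Lrp1 rose from 849 ± 114 to 1652 ± 44.3 CPM. The remaining tested neighbour, Stac3, had 1.01 (adjusted p = 0.0606, edgeR) and passed without WT replicate 3 (1.54, adjusted p = 0.0135, edgeR), with limma voom (1.13, adjusted p = 0.0393) and with the replicate number as a block (0.998, adjusted p = 0.0420, edgeR).

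Markers of other cell types also differed between the cultures. In bulk RNA, fewer cells of a type and less RNA per cell cannot be told apart. Counts of called markers are given over those tested and read against the 26.9% called, 12.7% higher and 14.2% lower, of all tested genes. All 13 microglia markers were tested, and 12 were called lower and 0 higher, with a summed level of 2178 to 2370 CPM in WT and 1436 to 1479 CPM in the knockout. Of 9 tested among 10 fibroblast markers, 7 were called higher and 0 lower (88.3 to 108 against 152 to 199 CPM). Of 8 tested among 13 pericyte and smooth muscle markers, 6 were called higher and 0 lower (883 to 925 against 1053 to 1144 CPM), with the pericyte markers Abcc9 and Higd1b at 3 counts or fewer in every library. Of 6 endothelial markers, only Kdr was tested, and it was called higher (35.4 to 40.8 against 126 to 129.98 CPM for the list), with Cldn5 and Emcn at 3 counts or fewer throughout. Of 9 tested among 13 choroid plexus markers, 3 were called higher and 1 lower (160 to 194 against 172 to 194 CPM). Of 2 tested among 9 other epithelial markers, 1 was called lower (11.5 to 12.4 against 7.19 to 7.74 CPM), and Cldn4 was at 0 in all libraries. Only 4 of 15 pituitary markers were tested, and 3 were called higher and 1 lower, with a median log2 fold change of 3.26 (17.6 to 20.6 against 29.2 to 35.5 CPM) and with Fshb at 0 throughout. Of 12 tested radial glia and astrocyte markers, 3 were called higher and 2 lower. Neuron markers were called lower in 2 of 7 tested (254 to 330 against 274 to 290 CPM) and oligodendrocyte lineage markers higher in 1 of 7 tested (121 to 132 against 132 to 142 CPM). The part of these differences in the levels of AA467197, Ndufa4 and Ndufa4l2 was not tested.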

How the data were processed

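RNA was sequenced from 6 libraries, 3 WT and 3 Edf1 knockout, labelled as biological replicates. The authors deposited whole-number read counts per gene symbol. The submitters' processing notes name FastQC 0.11.2, cutadapt 1.11, HISAT2 2.1.0 and GRCm38. The counting program, annotation, strandedness and treatment of multi-mapped reads are not given in the sources used here. In R 4.3.3, genes were filtered with filterByExpr, scaled by TMM and tested with edgeR 4.0.16 (quasi-likelihood, no covariate), with Benjamini-Hochberg adjustment over 14243 genes and a threshold of 0.05. Standard errors are the log2 fold change over the square root of the F statistic. log2 CPM used a prior count of 2. Sequences came from RefSeq (GRCm38.p6), and gene models, overlaps and transcripts from GENCODE M21 (GRCm38). Coding sequences were aligned globally with Biopython 1.88. The fits were also run on simulated counts as a check of the code, and no result here rests on that run. Genes named singly are the 3 members, Edf1, up to 3 called genes of each list that rose most and up to 3 that fell most, the genes most like each member and the neighbours. Spata5l1, COX1, COX2, Cox7a1, Ndufa12, Tnf, Nfkbia, Nfkb1 and Tnfaip3 were named after their values were seen. So were Vcam1, Irf1, Birc3, Icam1 and the genes given as too low to test. The members and lists were chosen with earlier results of these data known. Alternatives were DESeq2 1.42.0, limma 3.58.1 (voom), other scalings and filters, a replicate block, leaving out each library and a threshold of 0.01. Coa1 was the 1 listed gene not matched by symbol. Sites for miR-147 were not analysed here.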

Additional observations from a re-analysis of the deposited data

How the results depend on the processing

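AA467197 kept a log2 fold change of 2.66 to 2.75 over all alternatives, and Ndufa4l2 passed under none of them. Leaving out 1 library at a time gave -0.27 to -0.14 for Ndufa4, 0.38 to 0.95 for Ndufa4l2, 2658 to 4340 changed genes in all, and calls of 1 to 2 complex IV subunits, 0 to 3 assembly factors, 0 to 2 Ndufa subunits, 6 to 11 hypoxia genes and 4 to 8 inflammation genes. The 2 Ndufa subunits were reached without WT replicate 2, the 2 complex IV subunits without WT replicate 3 or knockout replicate 1, and the 4 inflammation genes without knockout replicate 3. A threshold of 0.01 left 2213 changed genes of 3833 (965 higher, 1248 lower), 0 assembly factors, 0 Ndufa subunits and 4 inflammation genes, and Ndufa4 at -0.21 no longer passed. The AA467197 share of the 3 paralogs was 0.797% in WT and 5.74% in the knockout with mean transcript lengths, and 1.26% and 8.78% with the longest transcript of any kind, an alternative added after seeing the data. Values near 0 changed sign: Phf14 ranged from -0.040 to 0.054, COX1 from -0.030 to 0.014, Bloc1s6 from -0.020 to 0.12 and Glcci1 from -0.13 to 0.13 when 1 library was left out. Phf14 was -0.040 without WT replicate 2, -0.0082 without knockout replicate 1 and -0.032 without knockout replicate 3, and COX1 was 0.0078 with library size alone, 0.014 without WT replicate 2, 0.0017 without WT replicate 3 and 0.0028 without knockout replicate 3. Bloc1s6 was -0.020 without knockout replicate 1, and Glcci1 was 0.13 without WT replicate 1 and 0.040 without knockout replicate 2. The cause was not tested. The replicate number as a block gave 2.73 for AA467197, -0.21 for Ndufa4 (adjusted p = 0.0202, edgeR) and 0.49 for Ndufa4l2 (adjusted p = 0.398, edgeR). It made Loxl3 and Stac3 pass, and 41 of the 43 genes followed singly in this fit kept their side of the threshold. Counts of calls moved to 4065 genes in all, 3 assembly factors and 8 inflammation genes (7 higher, 1 lower). The deviations of same-numbered libraries correlated at 0.069, 0.060 and 0.037, so no pairing was assumed. Counts of 5 to 25 limit Ndufa4l2. A minimum mean of 50 counts left Ndufa4l2, Ccl2, Stac3, Tnfrsf22 and Crispld2 without a value, and the planned description of genes with a miR-147 site was not run.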
